A study of Homo sapiens with 6 samples.

Results

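The sodium pump beta subunit genes ATP1B1, ATP1B2 and ATP1B3 were followed in AF22, a human neural stem cell line that was established from induced pluripotent stem cells. They were found by gene symbol, and all 3 were present among the 26485 symbols of the count tables. Total RNA was sequenced from 3 libraries of cells carrying a knockdown of BMI1 and COMMD3-BMI1, and from 3 libraries of cells with the control for short hairpin RNA (shControl), whose genotype is labelled WT. BMI1 encodes a Polycomb group protein that takes part in gene silencing, and COMMD3-BMI1 names transcripts that run through COMMD3 into BMI1. All 6 libraries come from the same cell line, and the labels do not say whether the numbered libraries of a group were separate cultures, so p-values measure the spread between libraries, which may be technical. The 3 genes were chosen by their control levels and knockdown differences, which were already known from these data. Those values are therefore a description, and where a fit's calls on them are counted, nothing is read from the count.

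The sodium pump, or Na,K-ATPase, is a membrane enzyme that uses ATP to move sodium out of the cell and potassium into it. Its catalytic alpha subunit works only together with a beta subunit, a glycoprotein that crosses the membrane once, helps the alpha subunit to fold and leave the endoplasmic reticulum, and modifies how the pump binds potassium. The sodium gradient that the pump sustains powers the uptake of glutamate, other amino acids and chloride in neural cells. ATP1B1 encodes the broadly used beta subunit, ATP1B2 encodes the form also known as AMOG, an adhesion molecule on glia that was described in mouse brain, and ATP1B3 encodes the form also known as the surface antigen CD298.

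The 6 libraries held 4962745 to 9640349 counts. The check of the target gene gave BMI1 at 29.2 ± 9.57 CPM (counts scaled to the library total and composition) in knockdown libraries and 87.5 ± 2.44 CPM in control libraries (mean ± SD, n = 3 each). Its log2 fold change was -1.61 (edgeR adjusted p 0.163 unpaired and 0.00836 paired). Knockdown library 2 stood apart on the first principal component, at 40.2, where the other 5 libraries lay between -25.5 and 11.5. Neural stem cell markers were present, with 13 of 14 above the low-count filter and HES5 at 0 in all 6 libraries. Their summed level ran from 3759 to 4921 CPM in knockdown and from 4323 to 4640 CPM in control libraries. The mature astrocyte markers GFAP and GJB6 had 1 and 0 counts over all 6 libraries, and the mature neuron marker RBFOX3 had 0. Deviations from the group means were shared by same-numbered libraries, so differences are also given within pairs of same-numbered libraries and from a fit with the number as a block (the paired fit).

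ATP1B1 had the highest mean level of the 3 beta subunit genes in both groups. It had 1236, 2605 and 3046 counts in knockdown libraries 1, 2 and 3, against 956, 1367 and 1433 counts in control libraries 1, 2 and 3. This corresponds to 256, 352 and 319 CPM in the knockdown libraries and 176, 211 and 207 CPM in the control libraries. The groups did not overlap, and library 1 was the lowest of its group on both sides. The mean was 308.9 ± 49.1 CPM in knockdown and 197.9 ± 19.4 CPM in control libraries (SD, n = 3 each), a fitted difference of 0.64 log2 units (SE 0.134), or 1.56-fold. Each knockdown library exceeded the control library of its number, by 0.54 log2 units in pair 1, 0.74 in pair 2 and 0.63 in pair 3.

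ATP1B2 was scarce in control cells and had the widest relative difference of the 3 genes. It had 70, 231 and 110 counts in knockdown libraries 1, 2 and 3, against 47, 44 and 48 counts in control libraries 1, 2 and 3. In CPM the knockdown libraries stood at 14.5, 31.2 and 11.5 and the control libraries at 8.64, 6.80 and 6.93. All 3 knockdown libraries lay above all 3 control libraries, and knockdown library 2 lay far above the other two of its group. The mean was 19.1 ± 10.6 CPM in knockdown and 7.45 ± 1.03 CPM in control libraries (SD, n = 3 each), a fitted difference of 1.36 log2 units (SE 0.374), or 2.57-fold. Without knockdown library 2 the difference was 0.79 log2 units. Within pairs the log2 differences were 0.73 in pair 1, 2.15 in pair 2 and 0.71 in pair 3.

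ATP1B3 was nearly level between the groups. It had 646, 987 and 1353 counts in knockdown libraries 1, 2 and 3, against 701, 806 and 906 counts in control libraries 1, 2 and 3. The values were 134, 133 and 142 CPM in the knockdown libraries and 129, 125 and 131 CPM in the control libraries. The groups did not overlap on this scale, but the gap between them was small, and they overlapped when counts were divided by the library total alone (130.2 in knockdown library 1 and 131.9 in control library 3). The means were 136.2 ± 4.77 CPM in knockdown and 128.0 ± 3.14 CPM in control libraries (SD, n = 3 each), a fitted difference of 0.09 log2 units (SE 0.0772), or 1.06-fold. Its coefficient of variation was the lowest of the 3 genes, at 3.50% in knockdown and 2.45% in control libraries. The mean count alone would give 3.17% in knockdown and 3.53% in control libraries.

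**Figure D1:**
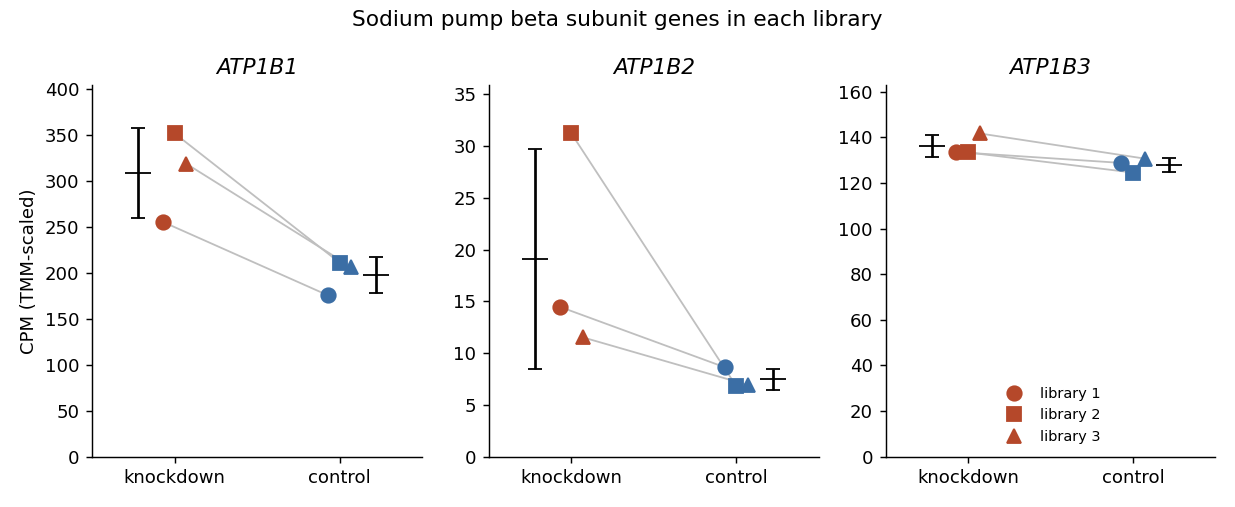
Level of each beta subunit gene in CPM (counts scaled to the library total and composition; each vertical axis starts at 0) in the 3 knockdown and 3 control libraries, with grey lines joining same-numbered libraries and black bars giving the group mean ± SD. ATP1B1 stands at 256 to 352 CPM in knockdown and 176 to 211 CPM in control libraries, ATP1B2 in knockdown library 2 stands alone at 31.2 CPM, and ATP1B3 stays between 125 and 142 CPM.

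All 3 genes passed the filter on low counts. In the paired edgeR fit 2 of the 3, ATP1B1 and ATP1B2, were called higher in knockdown (adjusted p under 0.05), where 10.02% of the 12937 tested genes were called, 4.63% higher and 5.39% lower. In the unpaired fit 0 of the 3 and 0% of all tested genes were called (0 genes, against 1869 genes or 14.4% at an unadjusted p under 0.05, and 142 called by DESeq2). The groups did not overlap, with knockdown higher, in all 3 genes and in 9.28% of all tested genes, and 20.5% did not overlap in either direction. The genes were proposed from this same contrast, so nothing is read from these counts. Of the 12937 tested genes, 13 had a higher log2 fold change than ATP1B2, 286 than ATP1B1 and 4306 than ATP1B3, and the median over all tested genes was 0.00. These ranks come from the values by which the genes were chosen and are a description only. Without knockdown library 2 the difference of ATP1B2 was 0.79 log2 units, and its rank was not recomputed.

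**Figure D2:**
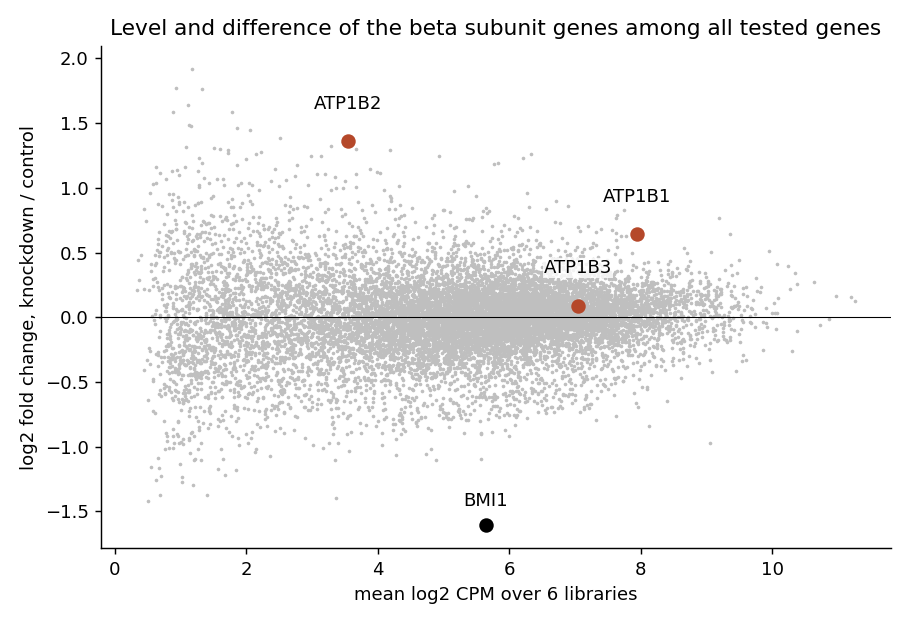
Mean log2 CPM over the 6 libraries (horizontal axis) and log2 fold change of knockdown over control in the unpaired edgeR fit (vertical axis) of each tested gene in grey, with the 3 beta subunit genes in red and the target BMI1 in black. ATP1B2 lies at 1.36 and ATP1B1 at 0.64, near the upper edge at their levels, and ATP1B3 at 0.09 lies within the mass of genes.

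Levels of different genes were compared per length, as CPM per kilobase of annotated exon sequence (GENCODE 29; 2962 bases for ATP1B1, 3276 for ATP1B2 and 2584 for ATP1B3). On this scale ATP1B1 stood at 104.3 ± 16.6 CPM per kb in knockdown and 66.8 ± 6.55 in control libraries (SD, n = 3 each). ATP1B3 stood at 52.7 ± 1.85 CPM per kb in knockdown and 49.5 ± 1.21 in control libraries. ATP1B2 stood at 5.82 ± 3.24 CPM per kb in knockdown and 2.28 ± 0.313 in control libraries. On this length the order ATP1B1, ATP1B3, ATP1B2 held in each of the 6 libraries, and no 2 neighbours in it overlapped within a group. Among the 12248 tested genes with a length, ATP1B1 was at percentile 98.2 of the knockdown level and 96.0 of the control level, ATP1B3 at 94.0 in knockdown and 93.4 in control, and ATP1B2 at 38.7 in knockdown and 19.4 in control.

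The make-up of the beta subunit transcripts was as follows. ATP1B1 made up 60.6%, 66.0% and 64.9% of the summed per-length level in knockdown libraries 1, 2 and 3, against 53.1%, 58.7% and 57.0% in control libraries 1, 2 and 3. The groups did not overlap. ATP1B3 made up 36.3%, 28.7% and 33.0% in the knockdown libraries, against 44.6%, 39.6% and 41.3% in the control libraries. Every knockdown share of ATP1B3 lay below every control share, while its own level was nearly the same in both groups. ATP1B2 made up 3.10%, 5.29% and 2.12% in the knockdown libraries, against 2.36%, 1.71% and 1.73% in the control libraries, and these groups overlapped.

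With the longest coding transcript as the length, ATP1B1 and ATP1B3 were at 59.1% and 37.9% in knockdown and at 50.9% and 47.5% in control libraries, and in control library 1 ATP1B3, at 50.4%, stood above ATP1B1, at 47.7%. The mean share of ATP1B1 stayed above that of ATP1B3 in both groups on this length. The ratio of ATP1B1 to ATP1B3 per exon length was 1.67, 2.30 and 1.96 in knockdown libraries 1, 2 and 3, against 1.19, 1.48 and 1.38 in control libraries 1, 2 and 3. The ratio of ATP1B1 to ATP1B2 was 20.9 ± 9.15 in knockdown and 29.96 ± 6.50 in control libraries (SD, n = 3 each), with overlapping groups. The summed per-length level of the 3 genes was 142, 180 and 166 CPM per kb in the knockdown libraries, against 112, 122 and 122 CPM per kb in the control libraries. Most of that gap was in ATP1B1.

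**Figure D3:**
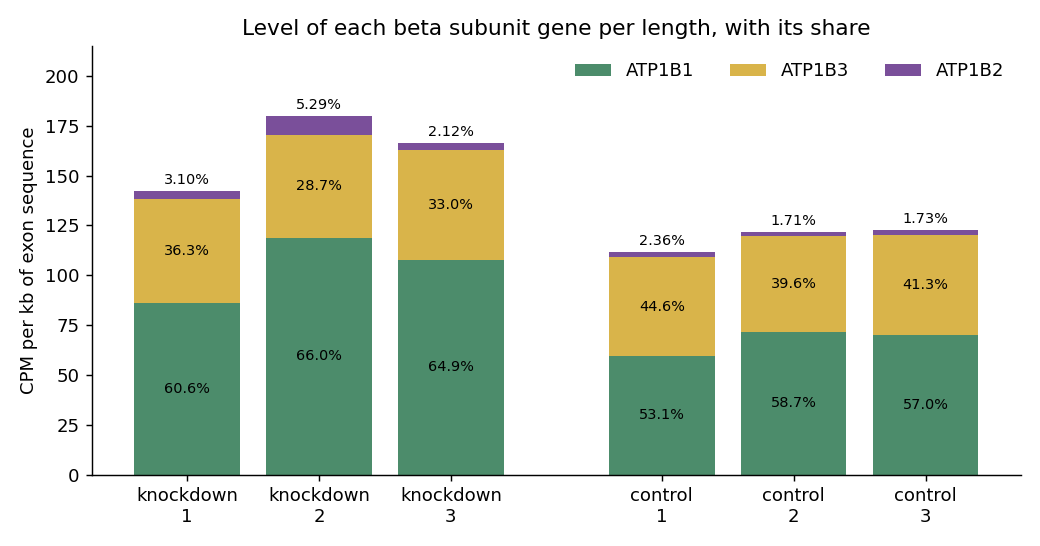
Level of each beta subunit gene in CPM per kb of exon sequence, stacked for each of the 6 libraries, with the share of each gene printed in percent. The stack reaches 142 to 180 in knockdown and 112 to 122 in control libraries, and the ATP1B3 segment is of nearly the same height in all 6.

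The genes lie on 3 chromosomes (GRCh38, GENCODE 29). ATP1B1 is on chromosome 1 at 169105697 to 169132722, ATP1B2 on chromosome 17 at 7646627 to 7657768 and ATP1B3 on chromosome 3 at 141876124 to 141926514, all on the plus strand. The last 192 bases of ATP1B1, or 6.48% of its exon sequence, overlap exon sequence of NME7 on the minus strand. The library kit is directional but the strand setting of the counting is not given in the sources used here, so reads there could be assigned to either gene. NME7, which encodes a protein of the nucleoside diphosphate kinase family, had 28.4 ± 3.10 CPM in knockdown and 27.2 ± 2.09 CPM in control libraries (n = 3 each). Its log2 fold change was 0.06 (edgeR adjusted p 0.859 unpaired and 0.80 paired). No other annotated exon overlaps those of the 3 genes. The nearest tested neighbours SFT2D2 (852672 bases before ATP1B1), SHBG (beside ATP1B2), RNF7 and TFDP2 (either side of ATP1B3) had log2 fold changes of -0.38, 0.13, -0.03 and 0.16, and none passed in either fit. The smallest edgeR adjusted p among these 4 was 0.537 unpaired and 0.182 paired.

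A promoter window of ATP1B2, the gene with the widest relative difference, is shown beside those of the other two because the 3 windows differ in composition. Sequences are those of RefSeq (GRCh38.p14, plus strand, 5′ to 3′) within the 250 bases before the annotated start. ATP1B2 has 3 annotated coding transcripts, and its window ends just before the first base of the gene. Starts further inside the genes were not examined, and which start these cells use was not tested. Bases inside a GENCODE exon are left out, so for ATP1B1, whose window lies wholly within an exon of a longer transcript, only a short stretch round its CCAAT box is given. Capitals mark 3 motifs, searched on both strands with overlaps allowed. The CCAAT box was searched by those letters. The GC box was searched as GGGCGG, and the TATA box as TATAAA. Where a motif lies on the minus strand, the capitals show its reverse complement, as for the CCAAT box of ATP1B3.
ATP1B2, chr17:7646377-7646626: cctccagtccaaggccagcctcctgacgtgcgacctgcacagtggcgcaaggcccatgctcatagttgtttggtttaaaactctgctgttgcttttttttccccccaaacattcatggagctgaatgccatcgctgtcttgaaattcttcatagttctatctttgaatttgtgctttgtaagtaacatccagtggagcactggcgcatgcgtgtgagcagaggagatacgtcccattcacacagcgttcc
ATP1B3, chr3:141876395-141876613: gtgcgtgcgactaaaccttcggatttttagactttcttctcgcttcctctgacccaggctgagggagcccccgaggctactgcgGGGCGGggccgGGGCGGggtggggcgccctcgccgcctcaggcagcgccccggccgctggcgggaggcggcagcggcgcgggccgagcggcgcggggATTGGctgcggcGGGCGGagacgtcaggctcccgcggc
ATP1B1, chr1:169106549-169106578: gctgcgcgcccaCCAATaggtgcggggctc

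The full window of ATP1B2, which covers only the sequence before its first annotated base, held 8 CpG dinucleotides at a GC content of 49.2%. It held none of the 3 motifs. That of ATP1B1 held 35 CpG dinucleotides at 77.6% GC, with 1 CCAAT motif and 2 GC boxes. That of ATP1B3 held 39 at 77.2% GC, with 1 CCAAT motif and 4 GC boxes, both motifs counted on either strand. Over the 35114 RefSeq promoter windows of this length the medians were 11 CpG dinucleotides and 58.0% GC. The CCAAT box was found in 32.0% of them, the GC box in 42.6% and the TATA box in 10.7%. At least as many CpG dinucleotides as in ATP1B1 and ATP1B3 were found in 5.80% and 2.65% of windows, and at least as many as in ATP1B2 in 56.3%. A match describes the letters and is not a binding site.

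Genes whose log2 CPM followed each beta subunit gene most closely over the 6 libraries were taken from the 10435 other tested genes with a mean of at least 10 CPM. For ATP1B1 they were C15orf57 (Pearson r 0.9989), PNPLA8, a phospholipase gene (0.9976), MBD2, which encodes a methyl-CpG-binding protein (0.9953), and the sialyltransferase gene ST6GALNAC3 (0.9952). For ATP1B2 they were PAM, which encodes a peptide-amidating enzyme (0.9957), PGM2L1 (0.9954), C14orf37 (0.9937) and HIF1AN, which encodes the asparagine hydroxylase that acts on HIF (0.9936). For ATP1B3 they were RRAGC, a GTPase gene of amino acid sensing (0.9873), SSR2, a translocon-associated protein gene (0.9851), the immunophilin gene FKBP1A (0.9810) and CAB39L (0.9789). A coefficient above 0.95 was reached by 162 genes for ATP1B1, 165 for ATP1B2 and 18 for ATP1B3. With 6 points that share 3 library numbers and 2 groups, these values describe likeness and carry no test.

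Neural stem cell markers included 1 of 13 tested members that was called lower in the paired edgeR fit, beside 5.39% of all tested genes called lower. Several other cell type and growth markers moved with the knockdown libraries, and their part in the beta subunit values was not tested. Cell division genes had a median log2 difference of -0.17, -1.01 and -0.51 in pairs 1, 2 and 3, and 14 of 15 were called lower in the paired edgeR fit. Their summed level ran from 1678 to 3216 CPM in knockdown and from 3158 to 3682 CPM in control libraries. Pair 2 thus held the largest difference of ATP1B1, of ATP1B2 and of this list, each in its own direction. The target BMI1 also differed most in pair 2, at -1.09, -2.05 and -1.73 log2 units in pairs 1, 2 and 3. Whether these differences are related was not tested. For ATP1B3 the largest was in pair 3, at 0.12 log2 units against 0.10 in pair 2.

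**Figure D4:**
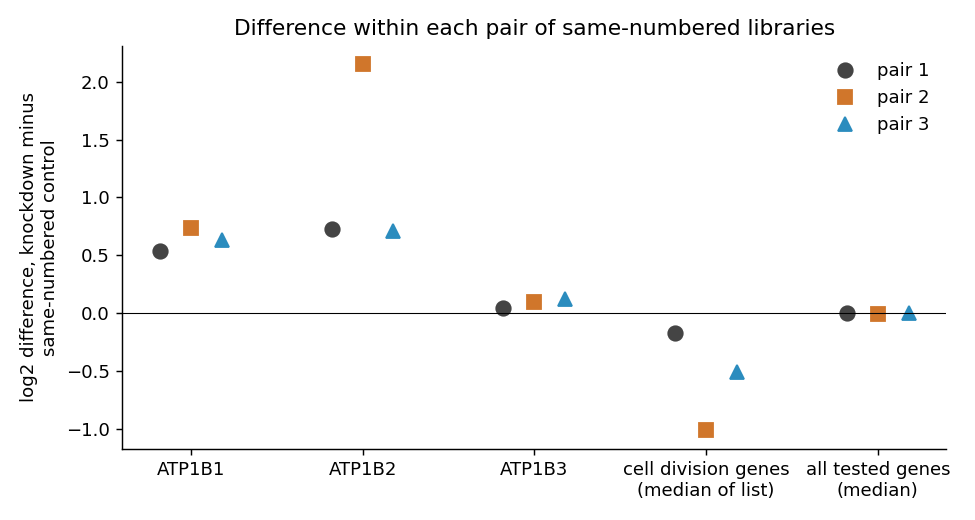
Log2 difference (log2 CPM with a prior count of 2) of each knockdown library minus the control library of the same number, for the 3 beta subunit genes, for the median of 15 cell division genes and for the median of all tested genes. ATP1B2 in pair 2 stands at 2.15, the cell division median in the same pair at -1.01, and the median of all genes lies at -0.01 to 0.00 in each pair.

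Astroglial markers are of interest beside ATP1B2. Their summed level ran from 630.7 to 687.0 CPM in knockdown and from 573.9 to 615.6 CPM in control libraries, without overlap, and most of it came from GJA1 and SLC1A3. In the paired fit GJA1, a gap junction gene, was the only one of the 6 tested members called, at a log2 fold change of 0.26 (edgeR adjusted p 0.0398). The members not called differed in direction. S100B, MLC1 and SLC1A3 had paired log2 fold changes of 0.23, 0.26 and 0.04, and ALDOC and AQP4 had -0.32 and -0.24. The 5 of the 11 markers that were not tested were too low, with GJB6 at 0 counts in all libraries. Mesenchymal markers summed to 1807 to 2563 CPM in knockdown and 1445 to 1794 CPM in control libraries, also without overlap. In the paired fit 2 of 8 were called higher (POSTN and COL3A1). All 8 had positive paired log2 fold changes, from 0.14 (COL1A1) to 0.68 (DCN). Neuronal markers summed to 895 to 1142 CPM in knockdown and 1090 to 1240 CPM in control libraries, with 2 of 7 tested members called lower (ELAVL3 and NEFM). The list was mixed in direction. Of the members not called, TUBB3 and NEFL had paired log2 fold changes of -0.18 and -0.35. MAP2, SYT1 and SNAP25 had 0.15, 0.29 and 0.15. Oligodendrocyte lineage markers summed to 402 to 421 CPM in knockdown and 395 to 426 CPM in control libraries, with 0 of 5 tested members called in either edgeR fit. These counts stand beside 10.02% of all tested genes called in the paired fit, 4.63% higher and 5.39% lower, and nothing is read from 1 or 2 called genes in a short list. In RNA from a whole culture, a change in the number of cells of a type cannot be told apart from a change in RNA per cell.

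Other genes around the pump were taken from 9 lists with 96 genes, of which 65 could be tested. Besides sodium transport, the lists cover calcium pumps and assembly factors of the endoplasmic reticulum. They were chosen with earlier results of these data known, so the share called is a description and not an independent test. The unpaired edgeR test called 0 of the 65 (11 had an unadjusted p under 0.05, and DESeq2 called 0). The paired edgeR fit called 13 of the 65, of which 5 rose and 8 fell, beside 10.02% of all tested genes. The median log2 fold change over the 65 genes was 0.04 in both fits, beside 0.00 over all tested genes. All 13 also passed without pair 2, where 22 of the 65 were called, but WNK2 and WNK4 did not pass without pair 1 or without pair 3, SLC7A5 not without pair 1, and SLC4A8 and NEDD4L not without pair 3. Fits without a pair have few residual degrees of freedom, so these passes are given as a description. Without knockdown library 1 the unpaired test called 4.

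Genes for proteins that bind the pump came from the FXYD and NKAIN families. Of the 7 FXYD genes, which encode small membrane proteins that tune the pump, only FXYD6 was above the filter. It had 68.4, 39.2 and 51.5 CPM in knockdown libraries 1, 2 and 3, against 71.5, 81.3 and 71.0 CPM in control libraries 1, 2 and 3. These groups did not overlap, but knockdown library 1 lay close to the controls, and the paired log2 fold change was -0.53 (edgeR adjusted p 0.287 unpaired and 0.0620 paired). It passed in the paired fit without pair 1 (-0.74), without pair 2 (-0.29), without pair 3 (-0.56) and with no filter (-0.53). Fits without a pair have few residual degrees of freedom, so nothing is read from those passes. The other 6 FXYD genes had 12 counts or fewer over all libraries. NKAIN1, one of 4 genes named for proteins that interact with the pump, fell in the paired fit by 0.78 log2 units (edgeR adjusted p 0.0268). It had 24.8, 8.51 and 16.3 CPM in the knockdown libraries, against 35.1, 21.3 and 26.0 CPM in the control libraries. Those groups overlapped, but each knockdown library lay below the control library of its number. NKAIN4 had a log2 fold change of 0.37 in the paired fit (edgeR adjusted p 0.101). The proton pump genes ATP4A and ATP12A and the divergent relative ATP1B4 were at 0 counts in all 6 libraries, and ATP4B had 2 counts in knockdown library 2.

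Kinases and ligases that control sodium transport included 3 genes that rose and 1 that fell in the paired fit, of 12 tested. Of all tested genes, 4.63% were called higher and 5.39% lower, and nothing is read from so few calls in a short list. SGK1, a kinase that raises the surface amount of sodium transporters, rose by 0.60 log2 units in the paired fit (edgeR adjusted p 0.0244). It had 17.4, 35.5 and 36.6 CPM in knockdown libraries 1, 2 and 3, against 10.7, 24.0 and 24.7 CPM in control libraries 1, 2 and 3. The groups overlapped through library 1, which was low on both sides, and the pairs were close to each other at 0.69, 0.56 and 0.56. NEDD4L, a ubiquitin ligase that removes sodium channels from the surface, rose by 0.34 (edgeR adjusted p 0.0417) to 71.0 ± 8.34 CPM in knockdown, against 56.4 ± 4.40 CPM in control libraries (n = 3 each). WNK4 rose by 1.03 and WNK2 fell by 0.56 in the paired fit. Both encode kinases of the WNK family, which controls cation and chloride cotransport, and WNK4 averaged only 3.65 CPM in knockdown and 1.79 CPM in control libraries. WNK1 and OXSR1, the most counted of this list, had paired log2 fold changes of 0.17 and -0.02 and did not pass.

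Transporters that use the sodium gradient were tested in 3 lists, and differences between the lists were not tested. SLC12A2, which encodes the importer of sodium, potassium and chloride, fell by 0.47 log2 units in the paired fit (edgeR adjusted p 0.0282). It had 153.8, 128.0 and 112.1 CPM in knockdown libraries 1, 2 and 3, against 179.3, 216.2 and 149.3 CPM in control libraries 1, 2 and 3. The groups overlapped, and each knockdown library was below the control library of its number. SLC4A8, a sodium-dependent bicarbonate transporter gene, fell by 0.34 (edgeR adjusted p 0.0453). SLC12A2 and SLC4A8 were the 2 called of 10 tested cotransporters, beside 10.02% of all tested genes called in the paired fit. SLC4A7, another bicarbonate transporter gene, had a paired log2 fold change of -0.02. None of the 8 tested sodium-proton and sodium-calcium exchanger genes passed in either edgeR fit, with SLC8A3 at 0.09 in the paired fit, DESeq2 called none of the 65 genes, and 0 of 5 calcium pump genes passed (ATP2A2 at 0.11, ATP2C1 at 0.08).

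Of 16 tested solute transporters 2 rose and 4 fell in the paired fit, beside 4.63% of all tested genes called higher and 5.39% lower. SLC1A5, an exchanger of neutral amino acids such as glutamine, fell by 0.67 log2 units (edgeR adjusted p 0.0256). It had 149.3, 82.0 and 165.8 CPM in knockdown libraries 1, 2 and 3, against 211.9, 181.6 and 219.0 CPM in control libraries 1, 2 and 3, without overlap. SLC20A1, a phosphate transporter gene, fell by 0.47 (edgeR adjusted p 0.0268) and SLC38A1, a glutamine transporter gene, by 0.44 (0.0470). SLC7A5, the large neutral amino acid exchanger gene, fell by 0.45 (0.0498). Its protein and its partner SLC3A2 are not themselves driven by sodium. SLC6A15, a neutral amino acid transporter gene, rose by 0.55 (edgeR adjusted p 0.0268), to 42.7 ± 7.83 CPM in knockdown, against 29.3 ± 2.23 CPM in control libraries (n = 3 each), and the taurine transporter gene SLC6A6 rose by 0.45 (0.0331). SLC38A2, a glutamine transporter gene, and SLC1A3, the glutamate transporter gene of radial glia and astrocytes, were the most counted and had paired log2 fold changes of 0.21 and 0.04 and did not pass, though SLC38A2 passed without pair 2 (0.18) and with no filter. Of 10 genes that fold and glycosylate membrane proteins in the endoplasmic reticulum, a step that beta subunits pass through, 0 were called by either edgeR fit or by DESeq2, with CANX at 0.08 and CALR at -0.02 in the paired fit. CANX, the calnexin gene, passed without pair 2, at 0.11. As for FXYD6, nothing is read from passes without a pair.

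**Figure D5:**
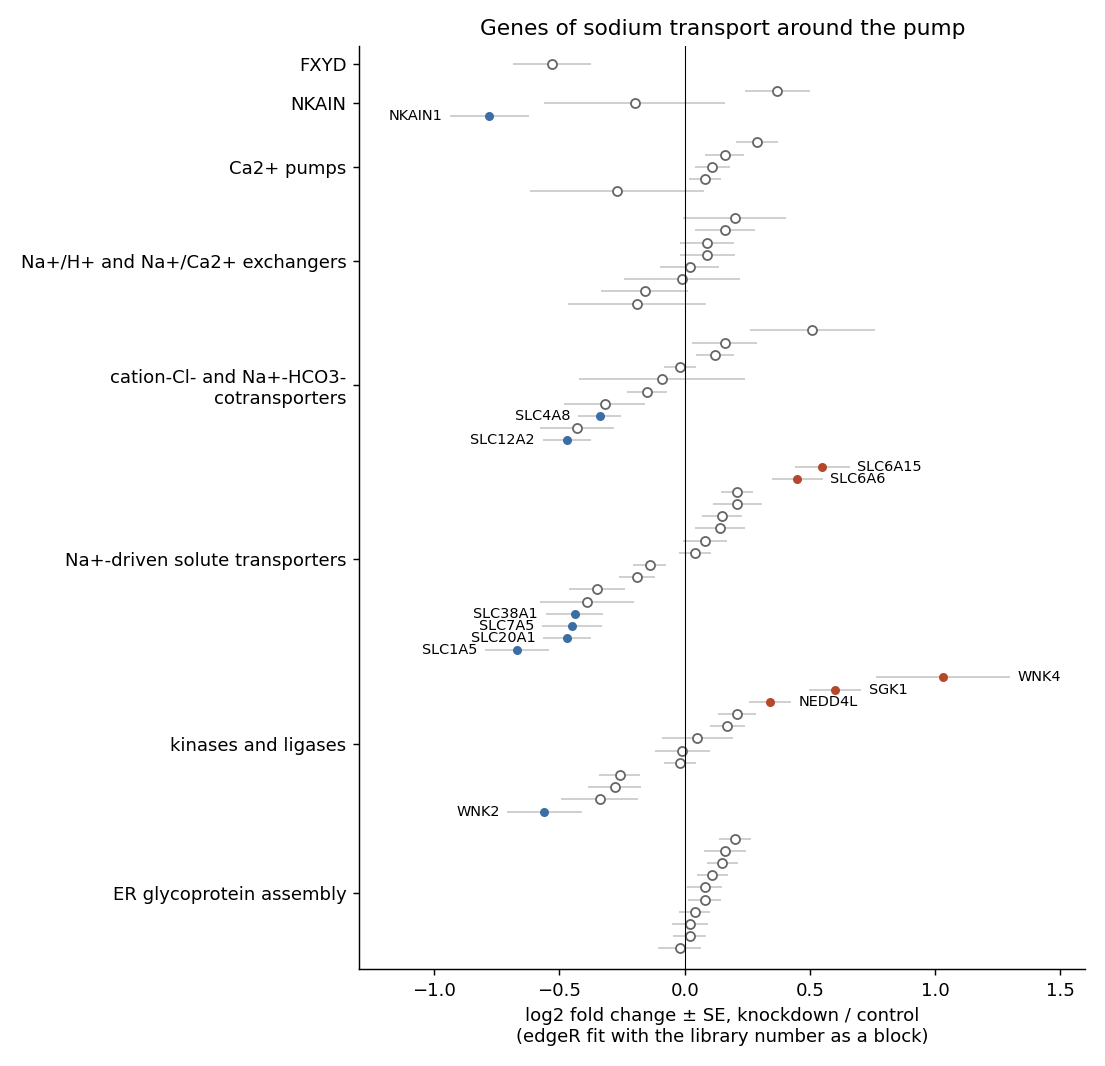
Log2 fold change ± SE of knockdown over control in the paired edgeR fit (horizontal axis) for the 65 tested genes of the lists around the pump, 1 gene per line, grouped by list. Filled and named points are the 13 genes with an adjusted p under 0.05, 5 higher (red) and 8 lower (blue); open points did not pass.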

How the data were processed

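The authors deposited 1 table per library with raw read counts for 26485 gene symbols. Trim Galore 0.6.6, STAR 2.7.10a, bedtools and hg38 appear in the submitters' processing notes. No source used here gives the counter, gene models or strandedness. Totals were 4962745 to 9640349 counts per library, so scarce genes such as ATP1B2 carry relatively large counting error. For ATP1B2 the coefficient of variation expected from the mean count alone was 14.7% in control and 8.54% in knockdown libraries. The observed values were 13.8% in control and 55.7% in knockdown libraries, and the cause of the wider knockdown spread was not tested. Groups and numbers came from the sample titles. Library pairs within a group differed beyond sampling noise (chi-square per gene at least 3.19).

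The tests used edgeR 4.0.16 (R 4.3.3): filterByExpr (12937 genes kept), TMM factors, the quasi-likelihood test with group as the only term, and Benjamini-Hochberg adjustment over all tested genes at 0.05. Each SE was derived from the fold change and the F statistic. The labels do not explain the library numbers, but deviations of same-numbered libraries correlated at 0.563, 0.467 and 0.535, all above 0.1, so the numbers were taken as pairs and a fit with the number as a block is given. Alternatives were RLE and total-count scaling, other filters, DESeq2 1.42.0, a stricter threshold, and leaving out each library. The pipeline was also run on simulated counts with a built-in effect of the library number. That run set no limit on false calls, so nothing is read from it about the calls given here.

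The members and lists were chosen with earlier results of these data known. Named genes were the 3 members, called genes and the 2 of highest mean CPM per list, the 4 most alike genes per member, nearest tested neighbours and BMI1. Lengths came from GENCODE 29 (found for 94.7% of tested genes) and promoter sequences from RefSeq. The alpha subunit genes and some genes named by this rule are not reported here.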

Additional observations from a re-analysis of the deposited data

How the results depend on the processing

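The fitted differences of the 3 beta subunit genes kept their direction in every setting run. Leaving out 1 library at a time, ATP1B2 ran from 0.79 (without knockdown library 2) to 1.64 log2 units, and leaving out 1 pair with the replicate block from 0.74 (without pair 2) to 1.55. ATP1B1 ran from 0.54 to 0.77 and ATP1B3 from 0.06 to 0.11 without 1 library. The cause of the ATP1B2 shift was not tested. The shares depend on the length used. With the longest coding transcript, ATP1B1 was at 59.1% and ATP1B3 at 37.9% in knockdown, and at 50.9% and 47.5% in control libraries. With no length scaling the control shares were 59.3% and 38.5%.

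The number of genes called over the transcriptome was 0 without a block, 2 with no filter, 142 with DESeq2 and 1296 with the replicate block. It was 0 to 665 without 1 library, the highest without knockdown library 1. With the block it was 2171 with no filter, 12 at an adjusted p of 0.01, and 912 to 2296 without 1 pair, the highest without pair 2. Of the 65 pathway genes, 0 were called without the block and 13 with it, 0 to 4 without 1 library, and 10 to 22 without 1 pair with the block. Fits without a pair compare 2 libraries a group and have few residual degrees of freedom. At an adjusted p of 0.01 none was called in either edgeR fit. A DESeq2 fit with the block was not run. Among the 3 beta subunit genes, depth limits ATP1B2 most, at 44 to 48 counts in control libraries.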
